A study of Mus musculus with 4 samples.

Results

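The genes described here are 10 members of the switch that takes a cell through the G1 phase of the cell cycle: the D-type cyclins Ccnd1, Ccnd2 and Ccnd3, their partner kinases Cdk4 and Cdk6, the kinase inhibitors Cdkn1a, Cdkn1b, Cdkn1c and Cdkn2c, and the retinoblastoma gene Rb1. They were taken by gene name from the array files, which hold them as 18 of 41174 probes and 54 of 43379 spots. All 10 genes could be tested, among 18008 genes in all, and 14 of their 18 probes were bright enough for a test.

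The series compared cerebellum of Dicer mutants (mGfap-Cre; Dicer flox/flox) with that of control littermates (mGfap-Cre; Dicer +/flox) at postnatal day 30. Total RNA came from 4 independent littermate pairs of mixed background, bred from an mGfap-cre line and Dicer flox/flox mice, and each pair shared 1 array with a dye for each genotype. The mutant was labelled with Cy5 in pairs 1 and 3 and with Cy3 in pairs 2 and 4. Dicer is the enzyme that cuts mature microRNAs out of their hairpins, and the Cre recombinase was driven by a mouse Gfap promoter, so deletion is directed to astroglia while RNA came from whole cerebellum. The Cre transgene and 1 floxed allele were thus present in the controls too.

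In textbook terms, D cyclins are made in response to growth signals and switch on Cdk4 and Cdk6, which phosphorylate the retinoblastoma protein and release E2F factors that turn on genes of DNA synthesis. The inhibitors act at this step: Cdkn2c (p18) binds Cdk4 and Cdk6 and keeps cyclin D off, whereas Cdkn1a (p21), Cdkn1b (p27) and Cdkn1c (p57) bind cyclin-kinase complexes. In the cerebellum, Ccnd1 and Ccnd2 are best known from dividing granule neuron progenitors, which are largely gone by the age studied, and Cdkn1b and Cdkn1c from cells leaving the cycle.

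MicroRNAs are linked to this group through work in human cells, where the let-7, miR-15/16 and miR-34 families repress D cyclins or their kinases. Their sequences are shown because these are products of the deleted enzyme; they were not measured on these arrays. The mature sequences from RefSeq (build GRCm38.p6) are given with the seed, bases 2 to 8, in capitals. Among the mature mouse microRNAs there, 11 shared the let-7a seed, 10 shared that of miR-16 and 4 that of miR-34a.
let-7a-5p: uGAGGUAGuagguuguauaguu
miR-16-5p: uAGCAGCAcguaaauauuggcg
miR-34a-5p: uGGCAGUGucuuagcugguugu

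The arrays read each gene through probes of 60 bases. A set of 4 probes is shown because it covers coding parts of transcripts described here: 2 of the 3 Ccnd2 probes, whose ratios are set side by side below, the probe of Cdk4 and the repeatedly spotted probe of Cdkn1b. In the Cdk4 probe the capitals mark the codons of the aspartate, phenylalanine and glycine motif that opens the activation segment of protein kinases. Positions are in build mm9, as the array files give them. The Ccnd2 probes lie at chr6:127098696-127098755 (A_52_P53906) and chr6:127089187-127089246 (A_51_P433228) on the minus strand, the Cdk4 probe at chr10:126501967-126502026 (A_51_P437027) and the Cdkn1b probe at chr6:134871103-134871161 (A_51_P169173), both on the plus strand.
Ccnd2 A_52_P53906: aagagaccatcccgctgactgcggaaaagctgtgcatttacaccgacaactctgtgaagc
Ccnd2 A_51_P433228: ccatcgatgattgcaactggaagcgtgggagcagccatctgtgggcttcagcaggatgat
Cdk4 A_51_P437027: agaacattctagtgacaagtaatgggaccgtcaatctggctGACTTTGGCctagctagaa
Cdkn1b A_51_P169173: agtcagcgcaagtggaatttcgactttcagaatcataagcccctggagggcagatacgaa

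The number of probes that the scanner software marked as well above background was 26381 to 28906 for mutants and 26276 to 27718 for controls. The targeted gene Dicer1 had log2 ratios of -0.06 ± 0.18 and 0.04 ± 0.22 at its 2 probes (SD, n = 4 pairs). Deletion was directed to a part of the cells, and where these probes lie relative to the floxed segment is not given in the sources used here, so they do not measure the deletion.

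Ccnd1 rose 1.98-fold in mutant cerebellum and was the 1 gene of the 10 that passed the test. Ccnd2 had a ratio of almost the same size at each of its 3 probes but varied more between pairs and did not pass. Ccnd3 lay on the other side, with a lower level in all 4 mutants, and did not pass either. The kinases, the inhibitors and Rb1 had smaller mean ratios, between -0.13 and 0.29 on the log2 scale, and none of them passed. Each ratio is the log2 of mutant over control, given with its SD over 4 pairs, and adjusted p values are from limma with Benjamini-Hochberg adjustment over 18008 genes at a threshold of 0.05. Over all genes 106 were higher and 80 lower, 1.03% in either direction, 0.589% in the higher and 0.444% in the lower. Of the 10 described here, 1 was higher and 0 were lower. Before adjustment 4 of the 10 had a limma p under 0.05 (Ccnd1, Ccnd2, Ccnd3 and Rb1), against 9.38% of all genes. The 10 genes were chosen with earlier results of these data known, so such shares, here and below, are descriptions and no test. The median ratio of the 10 was 0.13 and that of all genes 0.00.

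**Figure D1:**
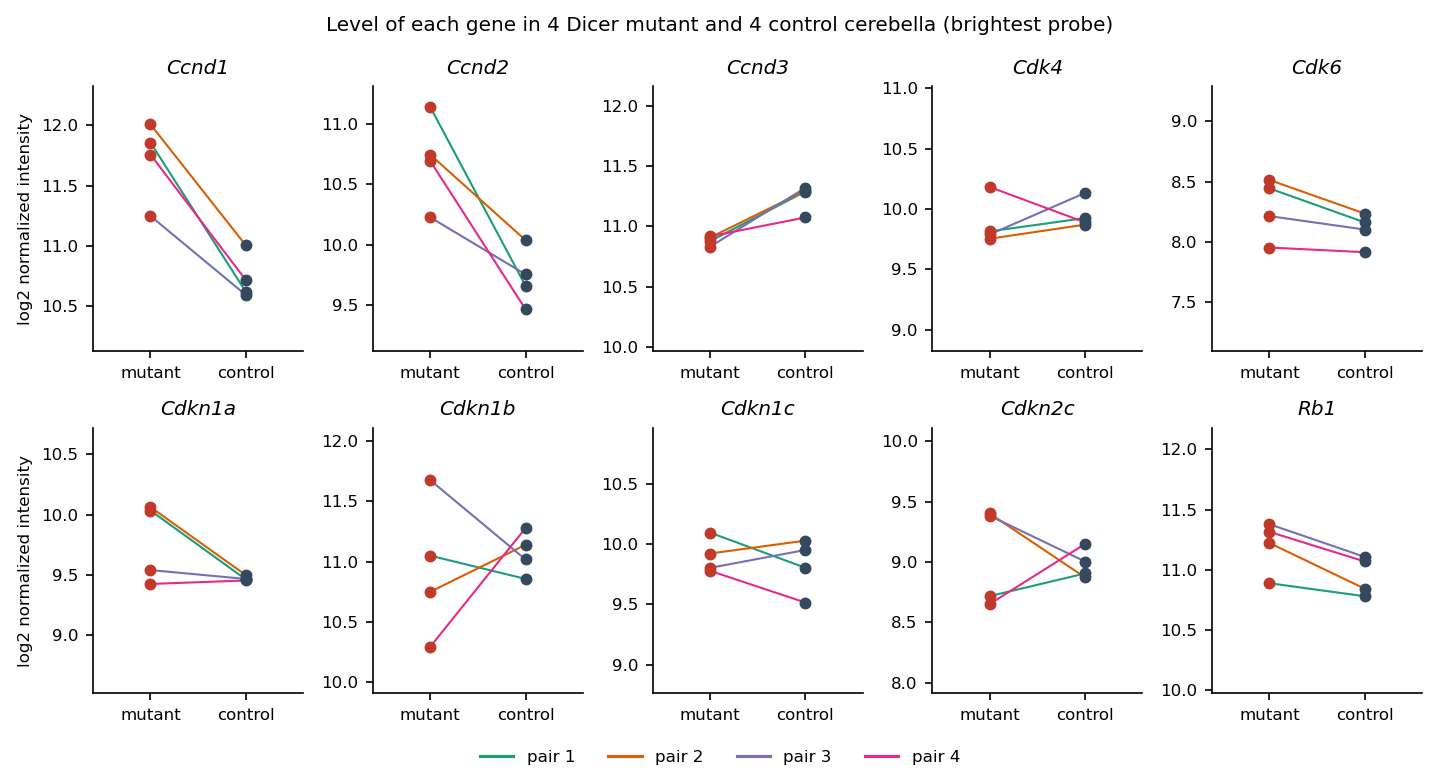
Log2 normalized intensity of each gene's brightest probe in 4 mutant cerebella (left, red) and 4 control cerebella (right, dark), with a line joining the littermates of each pair. Every panel spans an equal number of log2 units, centred on its own gene, and the mutants lie above all controls for Ccnd1 and Ccnd2 and below all controls for Ccnd3.

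Cyclin D1, the product of Ccnd1, is the D cyclin most widely used as a sign of mitogen signalling. Its probe (A_51_P262766, chr7:152116173-152116232, mm9, minus strand) had normalized levels of 11.86, 12.01, 11.25 and 11.76 in the mutants of pairs 1 to 4, against 10.62, 11.01, 10.59 and 10.72 in their control littermates, all as log2 intensity. The lowest mutant, that of pair 3, lay above the highest control, that of pair 2, so the groups did not overlap. The ratios of Ccnd1 were 1.24, 1.00, 0.65 and 1.04, with a mean of 0.98 ± 0.24 (1.98-fold, 95% interval 0.72 to 1.25 on the log2 scale, adjusted p = 0.0242, limma). Without pair 1 the ratio was 0.84 and did not pass (adjusted p = 0.0541). It was 1.01 with the processed signals of the scanner software (adjusted p = 0.0538).

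This probe was spotted 10 times on every array. Spots of an array share its labelling and hybridisation, so their spread covers the error within an array only, and differences between litters, labellings and arrays cannot be told apart. The SD of the Ccnd1 ratio over the 10 spots of an array was between 0.042 and 0.061, against 0.24 over the 4 pairs. In pair 3, which had the smallest ratio, the spots ran from 0.56 to 0.72, and in pair 1 from 1.16 to 1.31. The ranges of these pairs did not overlap, so their difference was larger than the spread between spots of an array.

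**Figure D2:**
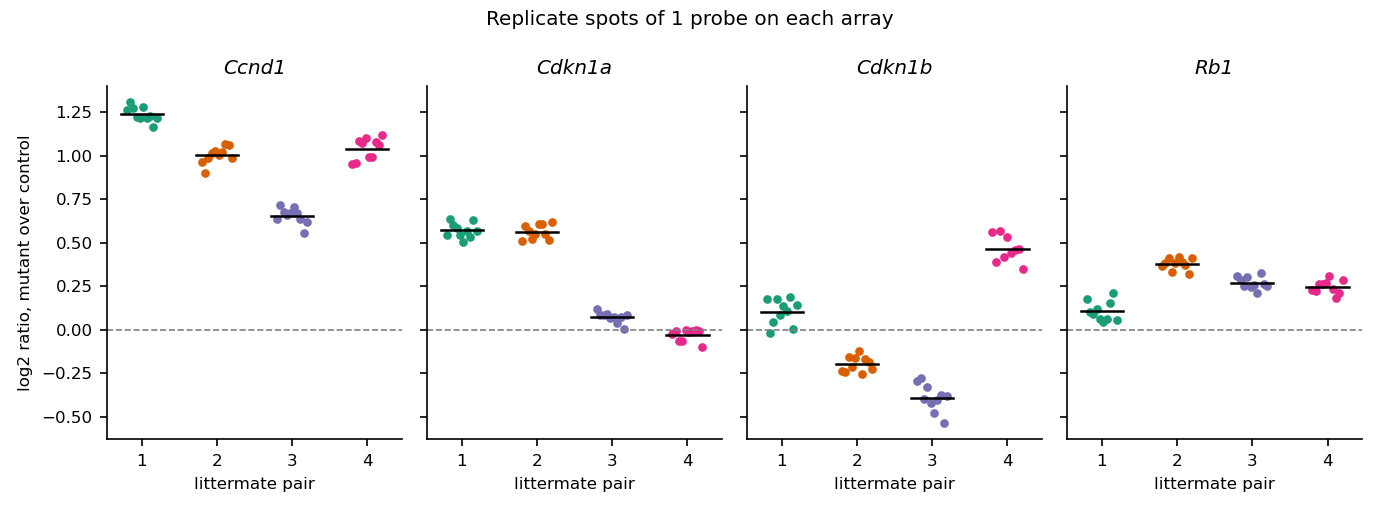
Log2 ratio, mutant over control, of each replicate spot of 1 probe for Ccnd1, Cdkn1a, Cdkn1b and Rb1 (vertical axis) in each littermate pair (horizontal axis); points are spots and black bars their mean. Spots of 1 array lie close together, with SDs from 0.031 to 0.079, while the pairs differ more.

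Cyclin D2, the product of Ccnd2, is needed for the full number of granule neurons and some interneurons in the mouse cerebellum. Its brightest probe (A_52_P514391, chr6:127079694-127079753, mm9, minus strand) read 11.14, 10.75, 10.23 and 10.69 in the mutants of pairs 1 to 4, against 9.66, 10.04, 9.75 and 9.46 in their littermate controls. All mutants lay above all controls, with the lowest mutant, of pair 3, close to the highest control, of pair 2. The ratios were 1.48, 0.71, 0.47 and 1.23, a mean of 0.97 ± 0.46 with a 95% interval of 0.51 to 1.43 and an adjusted p of 0.123 (limma).

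The other Ccnd2 probes lie 9493 and 19002 bases from it along the gene and gave the same picture. Probe A_51_P433228 had ratios of 1.25, 0.52, 0.43 and 1.41 in pairs 1 to 4, and probe A_52_P53906 had 1.14, 0.42, 0.37 and 1.33. At all 3 probes the mutants of pairs 1 and 4 stood furthest above their littermates and those of pairs 2 and 3 least, and pairs 1 and 4 carried the mutant in different dyes. In a fit over all 25879 tested probes, in which 0.831% were called, none of the 3 passed (limma, adjusted p from 0.141 to 0.239), while the Ccnd1 probe did (adjusted p = 0.0283). Without pair 2 the probes A_52_P53906 (1.04, adjusted p = 0.0318) and A_51_P433228 (1.12, adjusted p = 0.0293) passed in that fit, and without pair 3 the brightest probe A_52_P514391 did (1.23, adjusted p = 0.0354). Without pair 3 the ratio of Ccnd2 in the fit over genes was 1.23 and passed (adjusted p = 0.0340). It also passed at an unchanged 0.97 when the dye term was left out (adjusted p = 0.0324). In that fit it passed in 2 of 18 settings only. Without pair 1 its ratio was 0.72 (adjusted p = 0.191), and with median centring it was 0.96 (adjusted p = 0.238, limma).

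Cyclin D3, the product of Ccnd3, is the D cyclin found most widely in differentiating and resting cells. Its probe (A_51_P238448, chr17:47736267-47736326, mm9, plus strand) read 10.88, 10.91, 10.83 and 10.92 in the mutants, against 11.29, 11.30, 11.32 and 11.07 in the controls. The mutants lay close together and below every control. The ratios were -0.41, -0.39, -0.49 and -0.16, with a mean of -0.36 ± 0.14 (95% interval -0.53 to -0.19, adjusted p = 0.122, limma). Without pair 4, in which the control was lowest, the ratio was -0.42 (adjusted p = 0.0590). Leaving out another pair moved it further from the threshold. It was -0.38 without pair 1 (adjusted p = 0.513), -0.30 without pair 2 (adjusted p = 0.173) and -0.34 without pair 3 (adjusted p = 0.622, limma).

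Set against each other within pairs, Ccnd1 and Ccnd3 differed by 1.35 ± 0.23, and Ccnd2 and Ccnd3 by 1.34 ± 0.41, both above 0 in 4 of 4 pairs. Ccnd1 and Ccnd2 differed by 0.01 ± 0.27, above 0 in 2 of 4 pairs, with differences from -0.25 to 0.29. In the exact two-sided sign-flip permutation test the differences from Ccnd3 reached the smallest p that 4 pairs allow, which is above 0.05, and had an adjusted p of 0.5 over the 8 differences examined. The exact test of Ccnd1 against Ccnd2 gave p = 1. Levels without overlap between mutants and controls were seen for Ccnd1 and Ccnd2 in the higher direction and for Ccnd3 in the lower, 3 of the 10 genes. Over all genes tested 3.98% did not overlap, 2.19% in the higher and 1.79% in the lower direction.

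**Figure D3:**
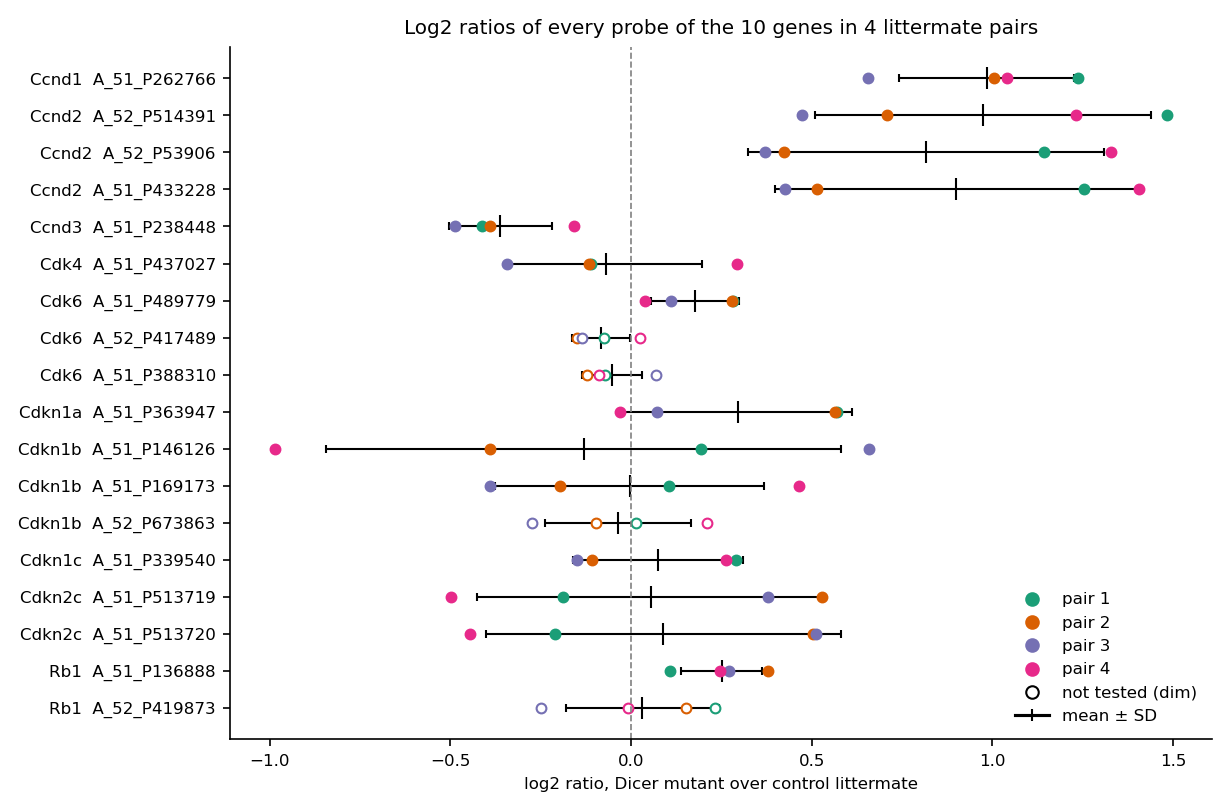
Log2 ratio, mutant over control, of every probe of the 10 genes (rows) in each of 4 littermate pairs (coloured points), with the mean and SD over pairs in black; open points are probes too dim to be tested. The probes of Ccnd1 and Ccnd2 lie above 0 in all pairs and that of Ccnd3 below 0 in all pairs.

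The kinases that D cyclins activate did not pass the test. The Cdk4 probe read 9.82, 9.75, 9.79 and 10.18 in the mutants and 9.92, 9.87, 10.13 and 9.89 in the controls, and the groups overlapped. Its ratio was -0.07 ± 0.27, with a 95% interval of -0.30 to 0.16 (adjusted p = 0.904, limma). Besides Cdk4, this probe is listed in the array file under a predicted transcript that has no name in the reference table.

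Cdk6 was read well above background on all arrays by 1 of its 3 probes (A_51_P489779, chr5:3529287-3529346, mm9, plus strand). That probe read 8.44, 8.51, 8.21 and 7.95 in the mutants and 8.16, 8.23, 8.10 and 7.91 in the controls. Each mutant lay above its own littermate, but the groups overlapped, and the ratio of Cdk6 was 0.18 ± 0.12 (95% interval -0.004 to 0.36, adjusted p = 0.544, limma). The other Cdk6 probes were above background in each channel on 1 of 4 arrays and so give no measure of a difference. The difference between Cdk4 and Cdk6 was -0.25 ± 0.34 over the pairs (exact sign-flip permutation p = 0.25, adjusted p = 0.667).

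Among the inhibitors, Cdkn1a, which p53 induces after DNA damage and other stress, varied among the mutants. Its probe (A_51_P363947, chr17:29237377-29237436, mm9, plus strand) read 10.03, 10.06, 9.54 and 9.43 in the mutants of pairs 1 to 4, against 9.46, 9.50, 9.47 and 9.45 in the controls. The controls had an SD of 0.019 and the mutants one of 0.33. The mutants of pairs 1, 2 and 3 lay above all controls, that of pair 3 only slightly, and that of pair 4 lay below all controls. The ratios of 0.57, 0.56, 0.07 and -0.03 averaged 0.29 ± 0.32 (95% interval -0.04 to 0.62) and did not pass (adjusted p = 0.609, limma). Over the 10 spots of this probe on an array the SD of the ratio was at most 0.042.

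Cdkn1b, the gene of p27, which holds cells out of the cycle, was read differently by its probes. The brightest (A_51_P146126, chr6:134875215-134875274, mm9, plus strand) had ratios of 0.19, -0.39, 0.66 and -0.98 in pairs 1 to 4, positive where the mutant was in Cy5 and negative where it was in Cy3. The dye term of this probe was 0.56 in favour of Cy5, and with it fitted the ratio of Cdkn1b was -0.13 (95% interval -0.45 to 0.19, adjusted p = 0.861, limma). Probe A_51_P169173, with 10 spots and a sequence from the coding part shown above, had ratios of 0.10, -0.20, -0.39 and 0.46 and a mean of 0.00 ± 0.37. Its SD between the spots of an array was at most 0.079. The remaining probe was above background on 1 array in the mutant channel and on 2 in the control channel. No direction for Cdkn1b was shared by the pairs at either of the 2 tested probes.

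Cdkn1c, the imprinted gene of p57, read 10.09, 9.92, 9.80 and 9.78 in the mutants and 9.80, 10.03, 9.95 and 9.51 in the controls (A_51_P339540, chr7:150644753-150644812, mm9, minus strand). The ratio was 0.07 ± 0.23, positive in 2 of 4 pairs (95% interval -0.19 to 0.34, adjusted p = 0.908, limma).

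Cdkn2c, the gene of the Cdk4 and Cdk6 inhibitor p18, had mutants on both sides of the controls. Its brighter probe (A_51_P513719, chr4:109333779-109333838, mm9, minus strand) read 8.72, 9.40, 9.38 and 8.65 in the mutants of pairs 1 to 4, against 8.91, 8.87, 9.00 and 9.15 in the controls. The mutants of pairs 2 and 3 lay above every control and those of pairs 1 and 4 below every control. The ratios of -0.19, 0.53, 0.38 and -0.50 averaged 0.06 ± 0.48 (95% interval -0.42 to 0.53, adjusted p = 0.966, limma). Its other probe shares 40 bases of the genome with the first and had ratios of -0.21, 0.50, 0.51 and -0.45. Pairs 1 and 4, with the lowest Cdkn2c ratios, had the highest Ccnd2 ratios. This pattern was picked after the values were seen, and with 4 pairs no correlation was computed.

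Rb1, the gene of the protein that D cyclin kinases inactivate, had ratios of 0.11, 0.38, 0.27 and 0.25, higher in the mutant in 4 of 4 pairs. Its probe (A_51_P136888, chr14:73595408-73595467, mm9, minus strand) read 10.89, 11.22, 11.38 and 11.31 in the mutants and 10.78, 10.84, 11.11 and 11.07 in the controls, and the groups overlapped. The mean was 0.25 ± 0.11 (95% interval 0.09 to 0.41) with an adjusted p of 0.253 (limma). Over 10 spots per array the SD of the Rb1 ratio was between 0.034 and 0.057. The other Rb1 probe was not above background on any array. Ratios of 1 sign in all 4 pairs were found for 5 of the 10 genes (Ccnd1, Ccnd2, Ccnd3, Cdk6 and Rb1), against 15.1% of all genes tested.

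The other genes of the G1 and G1/S machinery did not pass the test. Of 37 listed, among them E-type and A-type cyclins, E2F factors and ubiquitin ligase subunits, 34 were tested, 0 were called, and the median ratio was 0.00. The members with the smallest p were Ccng1, a p53 target (0.43 ± 0.18, adjusted p = 0.141, limma), and Ccna2, the S-phase cyclin (0.33 ± 0.10, adjusted p = 0.144). Cdkn2a, the gene of p16 and p19Arf, and Cdk2 were above background on 0 arrays. Cdk1 was above background on 4 arrays in the mutant channel and on 0 in the control channel, so it entered the test through the mutants alone. Its measured ratio was 0.28 ± 0.12 and did not pass (adjusted p = 0.151, limma). With its control level raised to that of the dimmest probe called above background on each array, Cdk1 was 1.18-fold higher in mutants. That value is no strict lower limit of the change.

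Genes that E2F turns on for DNA synthesis and division, the step after Rb1, did not pass either. Of 25 listed, 21 were tested, 0 were called, and 19 ratios were above 0 with a median of 0.09, against 9168 of 18008 genes and a median of 0.00 over all genes. The replication licensing factor gene Cdt1 stood at 0.25 ± 0.20 (adjusted p = 0.193) and the proliferation marker Mki67 at 0.67 ± 0.46 (adjusted p = 0.245, limma). The ratios of Mki67 were 1.05, 1.00, 0.56 and 0.07 in pairs 1 to 4. Every mutant level of Mki67 lay above every control level, as was so for 2.19% of all genes. Of the genes not tested, Top2a, of dividing cells, was above background on 0 arrays. Ccnb1 was above background on 3 arrays in the mutant channel and on 0 in the control channel.

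Of 29 regulators upstream of D cyclins and the inhibitors, such as Myc and Foxo family members, 27 were tested and 0 were called, with a median of -0.02. The hedgehog effector Gli2 (0.36 ± 0.17, adjusted p = 0.110) and the histone methyltransferase gene Ezh2 (0.31 ± 0.18, adjusted p = 0.316, limma) had the smallest p. Of 18 p53 targets beside Cdkn1a, 17 had ratios above 0, with a median of 0.07, against 9168 of 18008 genes tested and a median of 0.00. The single gene past the threshold was Eda2r, a receptor of the TNF family (adjusted p = 0.0228, limma), against 0.589% of all genes in the higher direction. Eda2r was well above background on 4 arrays in the mutant channel and on 0 in the control channel, so it entered the test through the mutants alone and its call is no support for the list. With its control level raised to that of the dimmest probe called above background on each array, Eda2r was 1.55-fold higher in mutants. This is no strict lower limit, since a level that was not called can lie above the dimmest called probe. The other 17 targets did not pass.

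**Figure D4:**
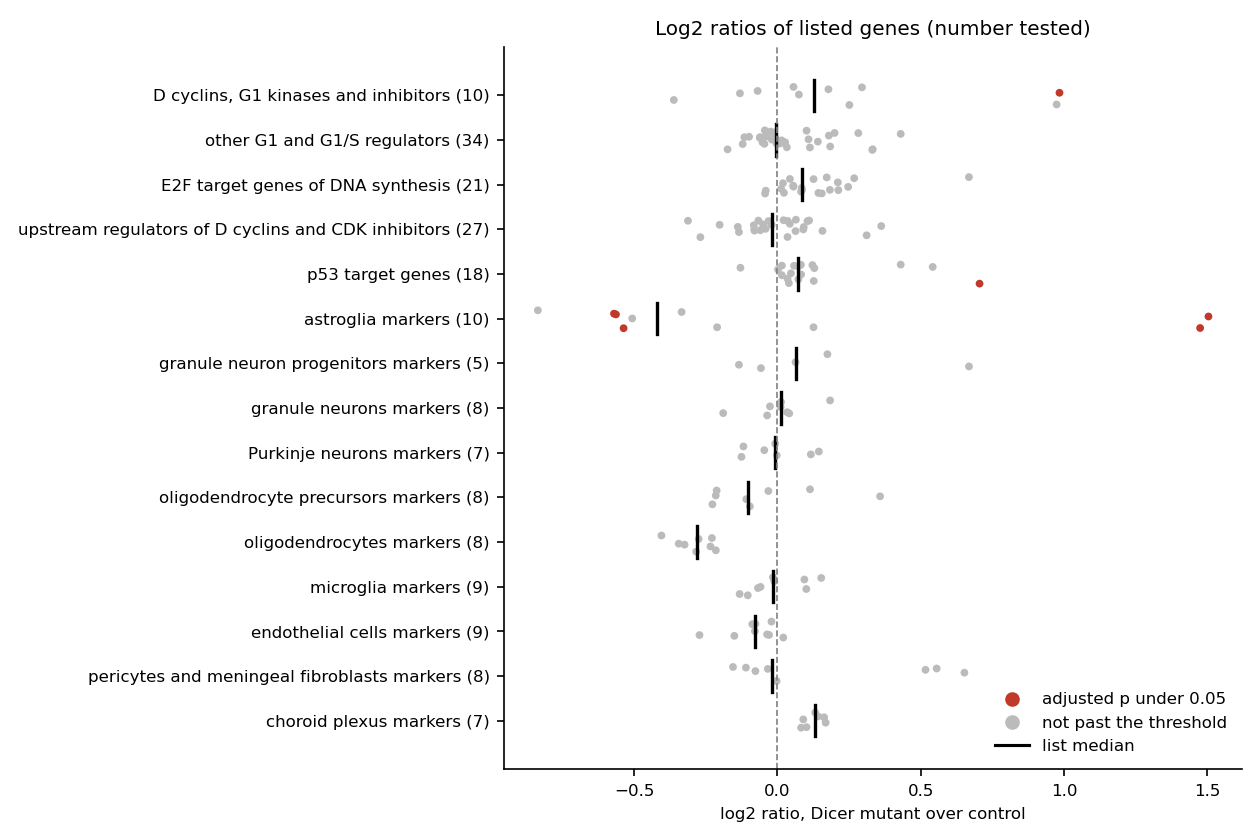
Log2 ratio, mutant over control, of each tested gene (points, horizontal axis) in the 10 genes described, 4 related gene lists and 10 cell type marker lists (rows, with the number tested); red points passed an adjusted p of 0.05 and black bars are medians. The Ccnd1 point is the 1 red point in the top row, and no gene of 3 of the 4 related lists passed.

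Markers of the cell types present were measured beside these genes, since in whole tissue fewer cells of a type and less RNA per cell cannot be told apart. Of 10 astroglial markers, 2 rose (Aldh1l1 at 1.50 ± 0.23 and Gfap at 1.47 ± 0.35) and 3 fell (S100b at -0.56 ± 0.09, Aqp4 at -0.54 ± 0.26 and Slc1a2 at -0.57 ± 0.11), each past the adjusted p threshold of 0.05 (limma). The summed intensity of the 10 was 241248 to 285302 in mutants and 309854 to 352200 in controls, lower in the mutant in all 4 pairs. This sum and those below add unlogged intensities, so the brightest genes weigh most. Here these were Aldoc and S100b, with mean mutant levels of 16.78 and 16.01 (log2), against 13.61 for Aldh1l1 and 12.49 for Gfap. By gene, 7 of the 10 mean ratios were below 0, with a median of -0.42. Of 8 markers of oligodendrocyte precursors, 0 were called, and their summed intensity was 13486 to 17193 in mutants and 14839 to 20240 in controls, lower in the mutant in all 4 pairs. The brightest were Gpr17 and Olig1, with mean mutant levels of 12.96 and 11.92 (log2). By gene, 6 of the 8 mean ratios were below 0, with a median of -0.10. The 2 above 0 were Vcan (0.36 ± 0.18, above 0 in 4 of 4 pairs) and Pdgfra (0.11 ± 0.11), so the list had no single direction. The 9 endothelial markers also had a lower sum in the mutant in all 4 pairs, at 12770 to 16729 in mutants and 12856 to 18253 in controls, and 8 of their 9 ratios were below 0. Of 8 markers of granule neuron progenitors, 5 were tested and 0 called, with sums of 2298 to 2696 in mutants and 2227 to 2539 in controls. The brightest of the 5 was Barhl1, with a mean mutant level of 10.47 (log2), and Mki67 is also in the E2F list above. The defining factor of these progenitors, Atoh1, was above background on 0 arrays. The lists for granule neurons, Purkinje neurons, oligodendrocytes, microglia, endothelial cells, pericytes with meningeal fibroblasts, and choroid plexus held 0 called genes. Their medians lay between -0.28, in oligodendrocytes, where all 8 ratios were below 0, and 0.13, in choroid plexus, where all 7 were above 0. Among the 8 markers of pericytes and meningeal fibroblasts, whose median was -0.02, 5 had mean ratios below 0 and 3 above. The 3 above, all genes of the extracellular matrix, had ratios above 0 in 4 of 4 pairs and did not pass. They were Lum (0.56 ± 0.36, levels not overlapping, adjusted p = 0.144), Dcn (0.52 ± 0.30, adjusted p = 0.222) and Col1a1 (0.65 ± 0.94, 2.06 in pair 1, adjusted p = 0.622, limma), named after their values were seen. Another matrix gene of the list, Col1a2, was among the 5 with mean ratios below 0, so the matrix genes did not share a direction. The summed intensity of that list was 15463 to 24953 in mutants and 14655 to 18305 in controls, higher in the mutant in 2 of 4 pairs. The part of any of these cell types in the Ccnd1 result was not tested.

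The D cyclins kept their directions when the arrays were processed in other ways or a pair was left out. The ratio of Ccnd1 lay between 0.84 and 1.13 over 18 such settings, that of Ccnd2 between 0.72 and 1.23 and that of Ccnd3 between -0.42 and -0.28. The settings in which Ccnd1 did not pass were the processed signals, the value table, median centring and the absence of pair 1. The value table holds the scanner's own ratios, so it repeats the processed signals. The settings are therefore not independent checks.

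**Figure D5:**
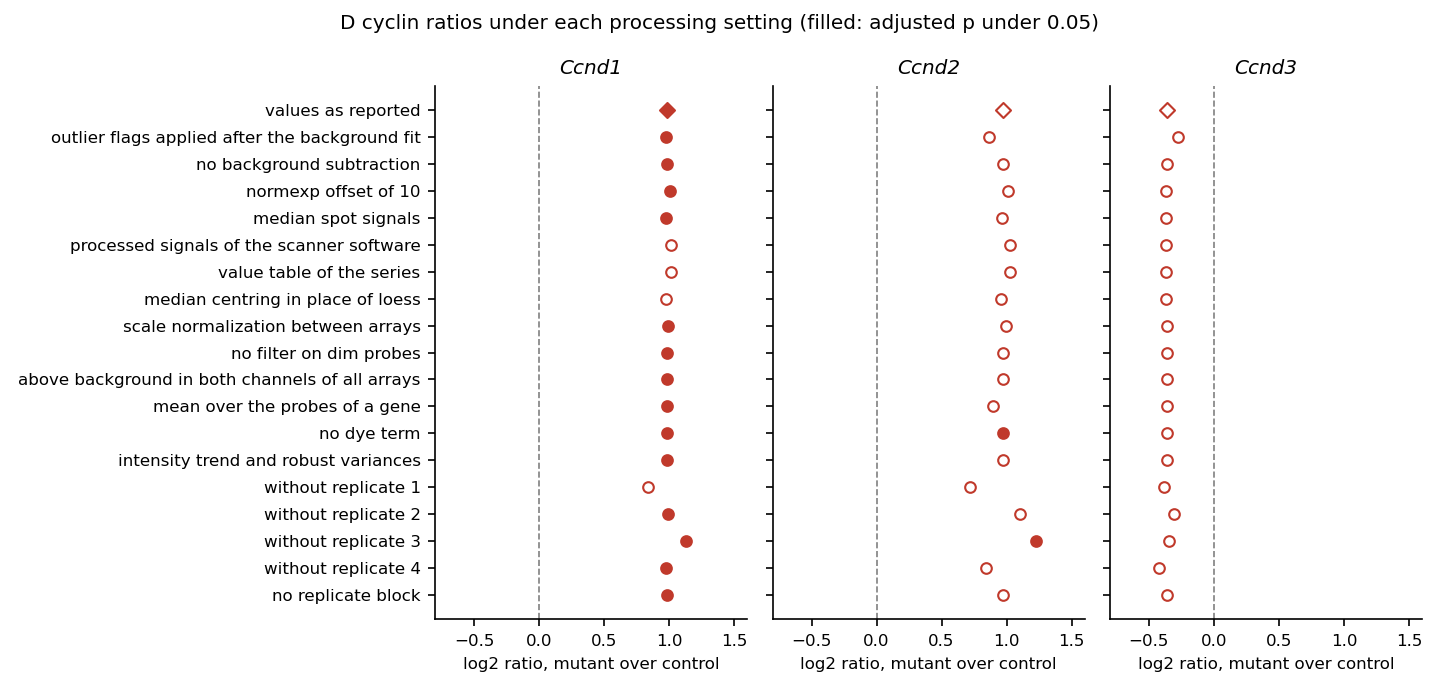
Log2 ratio, mutant over control, of Ccnd1, Ccnd2 and Ccnd3 (horizontal axes) in the values as reported (diamonds) and under each of 18 other processing settings (circles); filled symbols passed an adjusted p of 0.05. Ccnd1 passed in 14 of 18 settings, Ccnd2 in 2 and Ccnd3 in 0, and no ratio crossed 0.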

How the data were processed

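Total RNA of mutant and control cerebella was labelled with Cy3 or Cy5 and hybridised in 4 littermate pairs, per the labels' protocols. The deposited files of the scanner software (Agilent Feature Extraction 10.5.1.1, build mm9, per the file headers) give spot intensity in both channels. The deposited value table holds log10 ratios; it equals the scanner's log10 ratio with the sign turned on 2 arrays (largest difference 4.84e-06), and its column medians are 0. The direction was taken from the dyes in the labels.

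From mean and local background signals, background was corrected with normexp (offset 50, limma 3.58.1 in R 4.3.3), fitted without spots carrying a non-uniformity or population outlier flag, which were then left out. Ratios were loess-normalized within arrays with control spots at weight 0, and spots of 1 probe were averaged. A probe was tested if well above background in all 4 arrays in at least 1 channel. The brightest such probe stood for a gene. limma fitted a genotype and a dye term (2 residual and 3.36 prior degrees of freedom), with Benjamini-Hochberg adjustment at 0.05. Both littermates share an array, so the ratio pairs them by design. Of the spots of the 10 genes 1 was left out, of Cdkn1b in pair 4. Differences between genes were tested by exact sign-flip permutation.

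The number of arrays limits the precision. On simulated ratios for 18008 genes, 37% of 100 changes of 0.5 and 95% of 100 changes of 1 (log2) were called. Genes named are the 10 with every probe, called genes of the lists (or the 2 with the smallest p), the 5 genes with ratios closest to those of Ccnd1, and Dicer1. Mki67, Cdk1, Ccnb1 and the genes not above background were named besides, as were called cell type markers and the brightest genes of summed lists. Some uncalled cell type markers were named for their direction. The 10 genes and the lists were chosen with earlier results of these data known. The alternatives covered background, signal, normalization, filter, probe choice, dye term, pairing, variance model and leaving out each pair.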

Additional observations from a re-analysis of the deposited data

Results flagged for a closer look

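Of 54 sets of 4 values examined for the 10 genes (ratios, mutant levels and control levels), 5 held a sample far from the other 3, by Dixon's critical value of 0.829; chance alone marks about 5% of such sets. The control of pair 4 was low for Ccnd3, at 11.07 against 11.29 to 11.32 in the other controls. The mutant of pair 4 was high for Cdk4, at 10.18 against 9.75 to 9.82 in the other mutants. The remaining 3 were on probes not bright enough to be tested. The mutant of pair 1 stood apart at 6.83 on Cdk6 probe A_52_P417489, the control of pair 1 at 6.74 on Cdk6 probe A_51_P388310, and the mutant of pair 3 at 6.29 on Cdkn1b probe A_52_P673863. On both Cdk6 probes the littermate on the same array read about as high. The control was at 6.90 on A_52_P417489 and the mutant at 6.67 on A_51_P388310, so both channels of that array were high.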

How the results depend on the processing

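Over 18 alternatives the ratio of Ccnd1 ran from 0.84 to 1.13 and passed in 14 (limma, adjusted p from 0.00384 to 0.0611). The number of the 10 genes that were higher was 0 with the processed signals and with the value table (Ccnd1 1.01, adjusted p = 0.0538 in both) and 0 with median centring (Ccnd1 0.97, adjusted p = 0.0611). It was 2 without the dye term, which added Ccnd2. Leaving out each pair gave 0 to 2 higher genes of the 10; 0 were lower in any alternative. Without pair 4 Ccnd3 came nearest to a call, and over the 18 alternatives its adjusted p ran from 0.0590 to 0.622 (limma). Over all genes, flags applied after the background fit gave 50 higher and 32 lower, and the processed signals and the value table gave 53 lower. Leaving out a pair gave 44 to 215 higher and 13 to 127 lower. These counts were 44 and 13 without pair 1, 60 and 31 without pair 3, and 215 and 121 without pair 4, and the 127 came without pair 2. Without the replicate block that pairs littermates, Ccnd1 stayed called among genes, but in the fit over probes it did not pass (0.98, adjusted p = 0.0543). With the block, in the fit over probes, 2 Ccnd2 probes passed without pair 2 and the brightest without pair 3. The cause of these changes was not tested. With 4 pairs, small changes in any of the 10 genes could not be told from no change: the 95% interval of Cdkn2c ran from -0.42 to 0.53.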

Other observations

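The 5 tested genes whose ratios in pairs 1 to 4 lay closest to those of Ccnd1 were C1qtnf6, Eln, Adamts1, Slc14a1 and Arhgap18, with root mean square differences of 0.0968 to 0.201 on the log2 scale over 4 pairs. Eln encodes elastin, Adamts1 a secreted metalloproteinase and Slc14a1 a urea transporter. Their mean ratios were 1.00 ± 0.27 for C1qtnf6, 0.91 ± 0.21 for Eln, 0.89 ± 0.18 for Adamts1, 0.98 ± 0.23 for Slc14a1 and 1.00 ± 0.10 for Arhgap18 (SD, n = 4 pairs; limma adjusted p from 0.00690 to 0.0222). All 5 were well above background in both channels of the 4 arrays. They were picked for this likeness, so it is a description with no test.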
